A study of Homo sapiens with 20 samples.

Results

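RNA from cells was compared between colorectal cancer lines that were started from a metastasis or from ascites and lines that were started from a primary tumour. The comparison used 9 of the 20 libraries of the series, 1 per line. The 3 metastasis-derived lines were LoVo, COLO-201 and SNU-C1, and the 6 primary-derived lines were LS1034, HT-29, LS513, WiDr, HCT 116 and SW480. The study asked how well RNA in extracellular vesicles mirrors that of the cells that release them, and sequenced 10 lines in both compartments. The labels do not say from which site a line was taken. That grouping rests on what is generally known of the lines: LoVo from a lymph node metastasis, COLO-201 from ascites and SNU-C1 from a peritoneal metastasis. All 9 lines are labelled as wild-type, untreated adenocarcinoma, from cecum for LS1034 and LS513 and from colon for the other 7. All were kept in RPMI or DMEM medium with fetal bovine serum, penicillin and streptomycin, and the labels do not say which line had which medium.

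Several limits come with these lines. Each line is 1 library, so the spread between lines was measured and the spread between cultures of 1 line was not. WiDr is known to derive from HT-29, so the 6 primary-derived lines stand for fewer than 6 tumours. LS123 was set aside because its library was close to that of HCT 116 (Pearson's r of log2-scaled counts across 13470 genes, 0.959, against 0.763 to 0.854 with the other 8 lines). Which of the 2 labels holds was not tested, so the library labelled HCT 116, which was kept, may carry the same doubt. COLO-201 and SNU-C1 are known to grow loosely attached or floating. The labels do not give growth habit, so growth habit and site of origin cannot be told apart.

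Colorectal cancer spreads through lymph vessels to nodes, through the portal blood to the liver and across the peritoneal surface. Cells that leave an epithelium are known to loosen junctions, change integrins and the actin cytoskeleton, degrade matrix and, in part, switch on mesenchymal genes. Which of these differences persist in cultured lines is a matter of measurement, since lines also differ by mutation, differentiation and years in culture.

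The 9 cell libraries held counts for 17113 protein-coding genes, given below as CPM, counts per 1000000 of a library. Totals were 33034116 to 37418506 counts in the metastasis-derived and 24777352 to 34253797 in the primary-derived lines, an exact two-sided permutation p of 0.0714, or 0.357 after Benjamini-Hochberg adjustment over 10 library measures. Between 11923 and 13250 genes had at least 10 counts, and 3 counts corresponded to 0.0802 to 0.121 CPM. Mitochondrial messenger RNA took 0.436% to 1.49% of counts. The smallest p that 3 lines against 6 can give in this permutation test is 0.0238.

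All 9 lines carried the general epithelial genes of the tissue check, and the intestinal ones varied by line. EPCAM, an epithelial adhesion protein, lay between 1068 and 5793 CPM, and KRT8, KRT18, KRT19 and CDH1 also stood above 10 CPM in all 9 lines. CDX2, the master regulator of intestinal identity, stood at 42.5 CPM in LoVo, 0.179 in COLO-201 and 154 in SNU-C1, and at 0.505 to 129 (median 12.1) in the primary-derived lines. CDH17, an intestinal cadherin, followed the same pattern, with 844 CPM in LoVo, 0.150 in COLO-201 and 1585 in SNU-C1 against 0.0601 to 2083 (median 8.84). CEACAM5, the carcinoembryonic antigen, stood at 280, 0.778 and 1797 CPM in the same order and at 0 to 1918 (median 19.3) in the primary-derived lines. Of the 12 genes of the check, SNU-C1, LS1034 and LS513 had all 12 at 10 CPM or more, LoVo 11, HT-29 10, WiDr 9, COLO-201 and SW480 8 each and HCT 116 5. Intestinal markers thus differed within both groups, from all present in SNU-C1 and 2 of the primary-derived lines to the fewest in HCT 116. The 5 genes of HCT 116 were EPCAM, KRT8, KRT18, KRT19 and CDH1, with CDH17 at 0.0601 CPM and CEACAM5 at 0.150. In COLO-201, CDX2, CDH17 and CEACAM5 were under 1 CPM, while VIL1 stood at 281.

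No gene passed the test of metastasis-derived against primary-derived lines. In edgeR's quasi-likelihood test with Benjamini-Hochberg adjustment, 0 of 13470 genes (0%) had an adjusted p under 0.05, and the smallest adjusted p was 0.566. At an unadjusted p under 0.05 stood 575 genes, or 4.27% of those tested, 257 higher (1.91%) and 318 lower (2.36%) in the metastasis-derived lines. In 219 genes (1.63%) the groups did not overlap, with all 3 metastasis-derived lines above all 6 others in 106 (0.787%) and below them in 113 (0.839%). For a gene without ties, 0.0238 of the possible splits into 3 and 6 lines leave the groups apart in either direction. The 1.63% lay below that share, and the 4.27% lay below the threshold of 0.05. Neither count was thus above the level that the splits or the threshold alone would give. Limma's voom test also called 0 genes, with 440 at an unadjusted p under 0.05. DESeq2's Wald test called 85 genes, 11 higher and 74 lower, with 842 at an unadjusted p under 0.05, and in 38 of the 85 the groups did not overlap. Without the library labelled HCT 116, edgeR's test called 0 genes and the groups did not overlap in 581, with fewer lines to separate. The calls thus depended on the tool, and no gene below is described as changed.

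**Figure D1:**
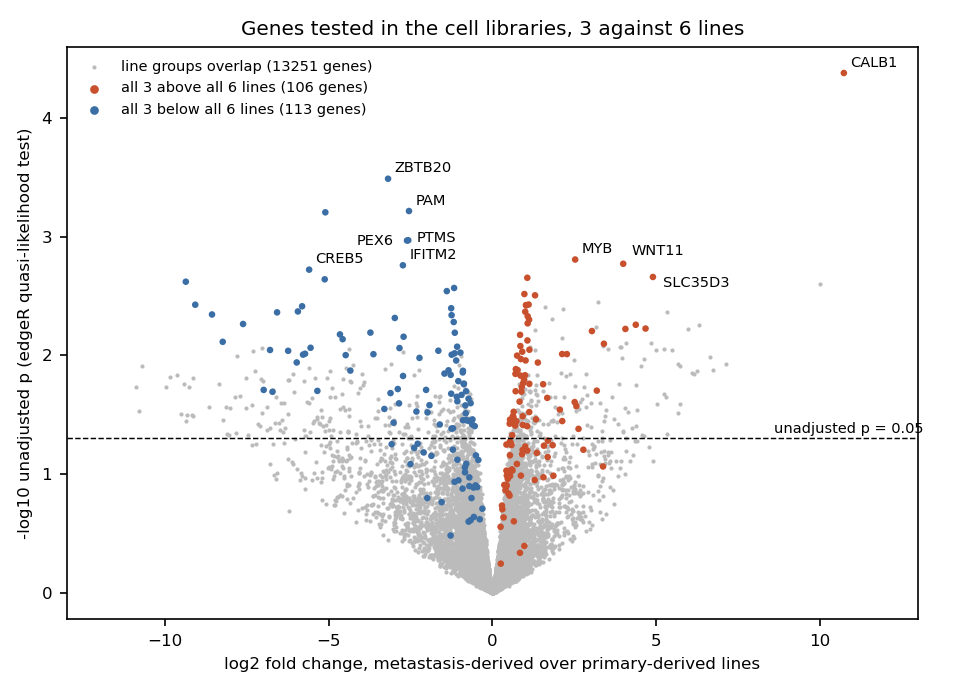
Each point is 1 of 13470 genes, with the log2 fold change of metastasis-derived over primary-derived lines on the x axis and the negative log10 of the unadjusted p from edgeR's quasi-likelihood test on the y axis. Orange and blue points are the 106 and 113 genes whose groups do not overlap, and CALB1 stands apart at a log2 fold change of 10.73 with an adjusted p of 0.566.

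The spread between lines was wide. The common biological coefficient of variation was 0.872, and the standard error of a log2 fold change had a median of 0.53 (interquartile range 0.37 to 0.99), or 0.43 in the 9638 genes averaging at least 10 CPM. A log2 fold change of 2 or more in size was fitted for 986 genes, 274 higher and 712 lower, and in 67 of them (6.80%) the groups did not overlap. Most of the large higher values came from 1 line. In 179 of the 274 genes (65.3%), a single line held over 80% of the summed CPM of the 3 metastasis-derived lines, LoVo in 63, COLO-201 in 67 and SNU-C1 in 49. The same share was not worked out for the 712 lower genes, and some of these also rested on 1 line. KRT5, for example, had 1555 CPM in SW480 and at most 0.0435 in the other primary-derived lines.

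The 3 metastasis-derived lines were no more like each other than like the primary-derived ones. Pearson's r of log2 CPM across genes was 0.764 to 0.812 (median 0.811) in their 3 pairs and 0.728 to 0.885 (median 0.815) in the 18 pairs with a primary-derived line. Among the primary-derived lines it was 0.731 to 0.971 (median 0.805, 15 pairs), and without the pair of HT-29 and WiDr the highest was 0.883 and the median 0.783. These values are across genes and describe the libraries. The nearest line of each metastasis-derived line was a primary-derived one: HCT 116 for LoVo (0.834), LS1034 for COLO-201 (0.828) and LS513 for SNU-C1 (0.885). HCT 116, LS513 and SW480 in turn had LoVo, SNU-C1 and COLO-201 as their nearest lines, the last at 0.817.

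**Figure D2:**
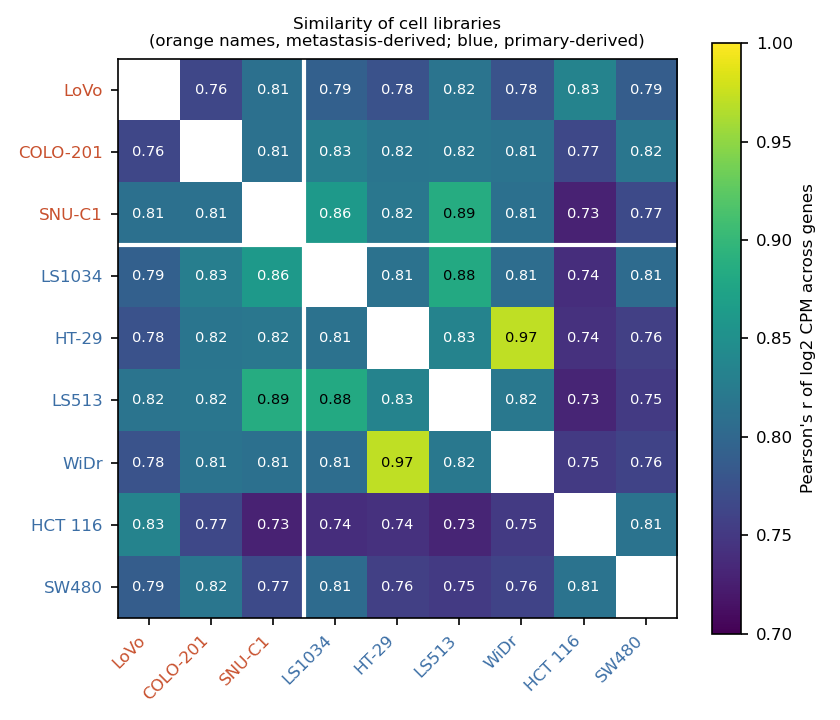
Pearson's r of log2 CPM across genes for each pair of the 9 cell libraries, from 0.73 (dark) to 0.97 (light), with white lines between the metastasis-derived and primary-derived lines. The light cell is HT-29 with WiDr, and the pairs among LoVo, COLO-201 and SNU-C1 lie in the range of the mixed pairs.

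The 12 places per direction went to the genes with the smallest p among those with at least 10 CPM in the higher group and groups that did not overlap. Since that rule picked them by p and by lack of overlap, their values are given as a description. The adjusted p was 0.566 for CALB1 and 0.995 for the other 23 in edgeR's test.

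The first 4 higher genes by p were CALB1, MYB, WNT11 and SLC35D3. CALB1, which encodes the calcium buffer calbindin, stood at 973 CPM in LoVo, 38.3 in COLO-201 and 105 in SNU-C1, and at 0 to 0.870 (median 0.0600) in the primary-derived lines, where it had 0 to 20 counts. The groups were far apart, with a log2 fold change of 10.73 (SE 1.51) whose size depends on the handling of these few counts. LoVo was far above the other two, and the value was 8.33 without it. DESeq2 gave CALB1 an adjusted p of 2.22e-13, while under the other alternatives it was 0.123 or more. MYB, a transcription factor of proliferating crypt cells, had 85.3 CPM in LoVo, 530 in COLO-201 and 134 in SNU-C1 against 16.4 to 71.3 (median 41.8). WNT11, a ligand of the non-canonical Wnt pathway, had 15.0, 40.5 and 199 CPM in the same order against 0.661 to 9.01 (median 5.68). In both of these genes, too, 1 of the 3 lines was far above the other two, COLO-201 for MYB and SNU-C1 for WNT11. The log2 fold change was 2.53 (SE 0.58) for MYB and 1.35 without COLO-201, and 3.99 (SE 0.93) for WNT11 and 2.39 without SNU-C1. SLC35D3, a member of the nucleotide sugar transporter family, stood at 17.6, 25.2 and 50.0 CPM against 0 to 3.09 (median 0.804).

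The other 8 higher genes had log2 fold changes of 0.97 to 1.30. GFM1, an elongation factor of mitochondrial translation, had 280 CPM in LoVo, 205 in COLO-201 and 383 in SNU-C1 against 106 to 179 (median 134). SUCLA2, a subunit of the citric acid cycle enzyme succinyl-CoA ligase, had 265, 289 and 372 CPM against 109 to 232 (median 125). PRELID3B, of a family of mitochondrial lipid transfer proteins, had 610, 497 and 921 CPM against 267 to 465 (median 326). SW480 was the primary-derived line nearest to the group for GFM1, LS513 for SUCLA2 and LS1034 for PRELID3B. GCLC, the catalytic subunit of the rate-limiting enzyme of glutathione synthesis, had the most even values, 240, 227 and 209 CPM against 61.2 to 143 (median 115). MORC4, a zinc finger ATPase, had 154, 120 and 124 CPM against 47.9 to 85.5 (median 66.2). The diacylglycerol kinase DGKE, the basic leucine zipper gene CREBZF and FAM126B had log2 fold changes of 1.30 (SE 0.33), 1.10 (SE 0.29) and 1.03 (SE 0.27).

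The first 6 lower genes by p were ZBTB20, PAM, PTMS, PEX6, IFITM2 and CREB5. ZBTB20, a zinc finger repressor, stood at 1.60 CPM in LoVo, 3.68 in COLO-201 and 1.61 in SNU-C1 and at 9.98 to 31.4 (median 20.8) in the primary-derived lines, a log2 fold change of -3.19 (SE 0.59). PAM, the enzyme that amidates peptide hormones, had 98.8, 32.8 and 68.2 CPM against 208 to 613 (median 376), a log2 fold change of -2.55 (SE 0.51). PEX6, an ATPase of peroxisomal protein import, had 2.53, 1.74 and 6.57 CPM against 13.8 to 31.9 (median 21.0). WiDr was the lowest primary-derived line for ZBTB20 and PAM, and HCT 116 for PEX6. CREB5, a transcription factor of the CREB family, had 0.210, 0.329 and 0.122 CPM, close to the level of 3 counts, against 0.691 in HCT 116, 2.15 in SW480 and up to 27.8 in WiDr. PTMS, the small acidic nuclear protein parathymosin, had 42.8, 17.9 and 13.1 CPM against 66.5 to 237 (median 130). IFITM2, an interferon-induced membrane protein that blocks virus entry, had 10.9, 37.5 and 7.06 CPM against 79.4 to 240 (median 102). IFITM2 has close paralogs, so its counts are uncertain where reads were shared.

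DYNC1H1, SERPINH1, CDC25C, PHLDB1, ZNF45 and ZNF227 were the remaining 6 lower genes. DYNC1H1, the heavy chain of cytoplasmic dynein, had 70.2, 50.8 and 65.1 CPM in LoVo, COLO-201 and SNU-C1 against 98.6 to 206 (median 135). PHLDB1, a protein that anchors microtubules at the cell cortex, had 6.15, 10.8 and 8.37 CPM against 14.3 to 169 (median 54.5). SERPINH1, the collagen chaperone of the endoplasmic reticulum, had 36.2, 30.4 and 21.8 CPM against 43.5 to 95.1 (median 73.1). CDC25C, the phosphatase that starts mitosis, had 11.7, 17.7 and 14.4 CPM against 20.3 to 47.8 (median 34.3). All 4 were lower in each of the 3 lines, with log2 fold changes of -1.17 (SE 0.29), -2.98 (SE 0.82), -1.26 (SE 0.34) and -1.25 (SE 0.34). The zinc finger genes ZNF45 and ZNF227 had log2 fold changes of -1.39 (SE 0.35) and -1.18 (SE 0.33). Both lie on chromosome 19, each in a run of neighbouring genes that were low in LoVo.

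**Figure D3:**
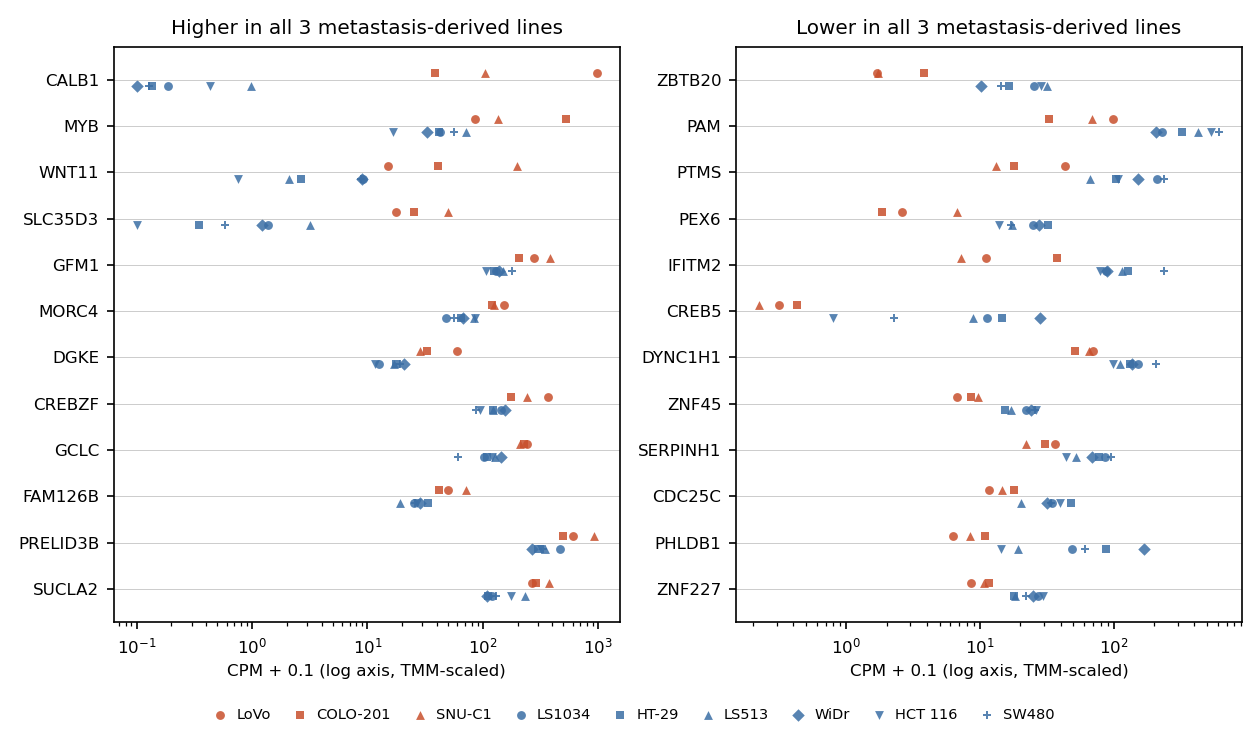
CPM plus 0.1 on a log axis for the 12 higher and 12 lower genes, 1 symbol per line, with metastasis-derived lines in orange and primary-derived lines in blue. The groups do not overlap in any row because the genes were chosen that way, and CALB1 shows the widest gap.

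No single metastasis-derived line was always the nearest to the primary-derived ones. Among the 106 genes in which all 3 were higher, the lowest of the 3 was LoVo in 35, COLO-201 in 45 and SNU-C1 in 26. Among the 113 lower genes, the highest of the 3 was LoVo in 30, COLO-201 in 49 and SNU-C1 in 34. The median size of the log2 fold change was 0.93 in the higher and 1.39 in the lower genes.

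MYB and SLC35D3 lie near each other on chromosome 6, and in COLO-201 several genes around them were also high. Against the median of the other 8 lines, COLO-201 had 10.7 times as much MYB, 5.71 times as much HBS1L, 4.27 times as much AHI1 and 10.7 times as much MTFR2, which lie next to it. TBPL1, SLC2A12, SLC35D3 and IL20RA stood 8.99, 20.8, 21.0 and 4.41 times above that median, while SGK1 between them did not. In SNU-C1, CD44, a hyaluronan receptor used as a stem cell marker, had 5109 CPM, 31.4 times the median of the other lines, and its neighbour PDHX had 2389 CPM, 25.8 times. APIP, the next gene on the other side of PDHX, stood at 0.579 times. These regions were chosen after their values were seen, and the number of DNA copies was not measured.

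**Figure D4:**
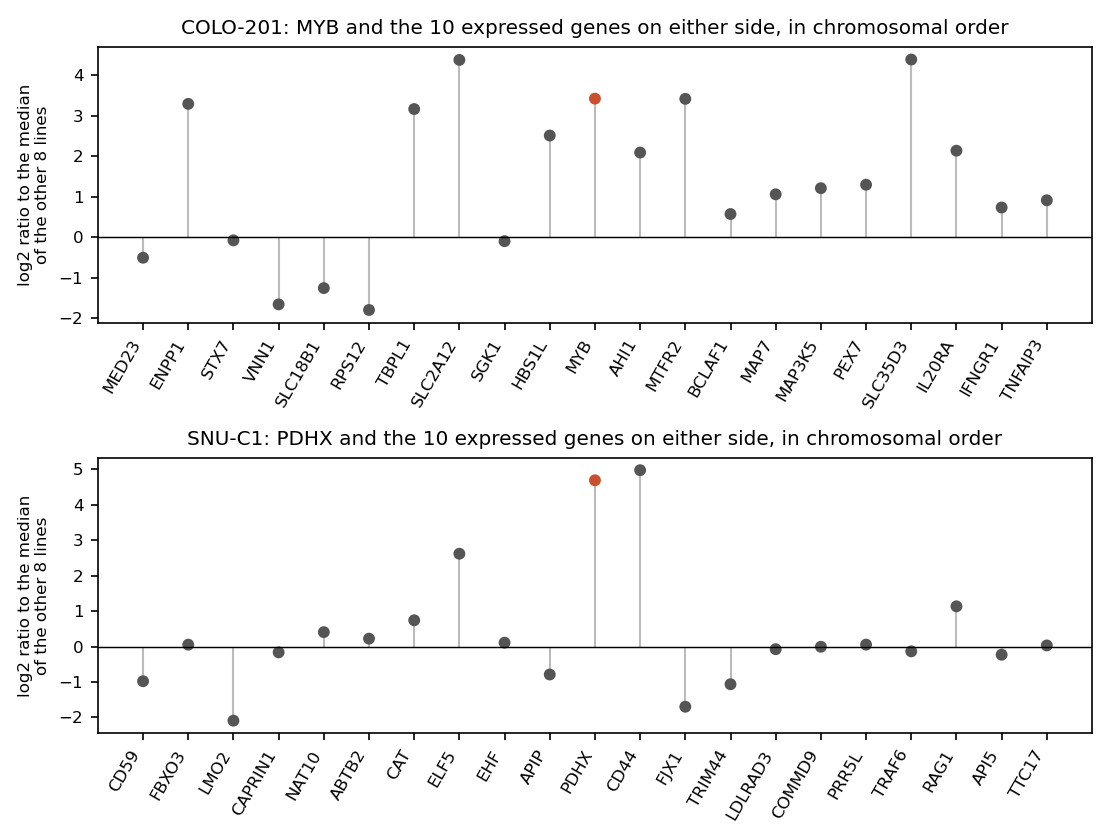
Log2 ratio of 1 line's CPM to the median of the other 8 lines for a gene (orange) and the 10 expressed genes on either side of it in chromosomal order, for MYB in COLO-201 and PDHX in SNU-C1. Most genes next to MYB lie above 0, whereas around PDHX the ratio is high in PDHX, CD44 and ELF5.

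Genes were then read by role, in 33 lists with 771 symbols, of which 741 had counts, 646 passed the filter on low counts and were tested, and 30 were not analysed here. EdgeR's test called 0 of the 646 members. In 15 (2.32%) the groups did not overlap, 3 higher and 12 lower, against 1.63% of all genes. The median log2 fold change of the members was -0.29, against -0.04 over all genes tested. In edgeR's test 47 of the 646 members had an unadjusted p under 0.05, 9 higher and 38 lower. Over all genes tested it was 575 of 13470 (4.27%), 257 higher and 318 lower. In 22 of the lists no member had groups that did not overlap, and in none of the 33 did the lists' median levels separate the 3 lines from the 6. A list's level in a line was the median over members of log2 CPM minus the mean of the 9 lines. Group means of that level did not always share the sign of the median log2 fold change. They went the other way in, among others, the goblet, brush border, Wnt, keratin and EGF receptor lists. RNA was taken from whole cultures, so fewer cells of a kind and less RNA per cell cannot be told apart.

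No junction, integrin or laminin gene passed edgeR's test. In the list of epithelial junctions 0 of 33 members were called or had groups that did not overlap, and the median log2 fold change was -0.24 with 10 members above 0. CDH1, which encodes E-cadherin, stood at 400 CPM in LoVo, 568 in COLO-201 and 763 in SNU-C1 and at 43.0 to 925 (median 603) in the primary-derived lines, the lowest being SW480. Among integrins and laminins the median was -0.38, and 2 of 24 members had groups that did not overlap. LAMA5, a laminin chain of the epithelial basement membrane, had 27.1, 9.15 and 12.3 CPM against 27.6 to 186 (median 109). Its groups were separated only narrowly, between LoVo and LS1034. ITGA6, the integrin chain of hemidesmosomes, had 786, 2057 and 897 CPM against 238 to 985 (median 525), so that the groups overlapped at LS513.

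VIM, CALD1 and TAGLN of the mesenchymal list were near 0 in all 3 metastasis-derived lines, but the level of the whole list differed among these lines. The mesenchymal transition list had a median log2 fold change of -1.21, with 8 of 22 members above 0, 5 at an unadjusted p under 0.05 and 0 called. VIM, the mesenchymal intermediate filament vimentin, stood at 0.53, 0.0598 and 0 CPM against 0.284 to 96.6, but the median of the primary-derived lines was 0.779 and SW480 held the highest value. CALD1, an actin-binding protein of contractile cells, had 0.368, 0.120 and 0.0609 CPM against 0.227 to 122 (median 3.23), with HCT 116 and SW480 far above the other 4. TAGLN, a smooth muscle actin-binding protein, was the 1 member whose groups did not overlap, at 0.473, 0.329 and 0.365 CPM against 0.811 in HCT 116 to 6.30 in LS513. Against that, FN1, which encodes fibronectin, was highest in COLO-201, at 207 CPM, and S100A4 at 3446 CPM. VIM, FN1 and S100A4 were picked after their values were seen. Without COLO-201 the median of the list was -2.62. By line, the level of the list averaged -0.66 ± 1.21 (SD, n = 3) against 0.39 ± 1.38 (SD, n = 6). COLO-201 (0.73) stood above LS1034 (0.55), HT-29, LS513 and WiDr on that scale, and below HCT 116 (1.01) and SW480 (2.80). LoVo (-1.23) and SNU-C1 (-1.48) were the lowest lines.

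Actin, YAP and protease lists had medians below 0 and few members apart. The list of focal adhesion and actin genes had a median of -0.25, and 2 of 35 members had groups that did not overlap. These were MYL12A, at 269, 337 and 291 CPM against 417 to 1073 (median 600), and MYL12B, at 552, 691 and 619 CPM against 771 to 1625 (median 1033), 2 near-identical regulatory light chains of non-muscle myosin whose reads may be shared. YAP and TAZ targets had a median of -0.20, and ANKRD1, a YAP target, was at 50.5 CPM in SW480 and at most 0.853 in the other 8 lines. Matrix proteases and their inhibitors had a median of -0.71, with 3 of 25 at an unadjusted p under 0.05. PLAUR, the urokinase receptor, had 15.9, 24.9 and 10.3 CPM against 20.0 to 181 (median 83.8). HT-29, LS513 and WiDr held the high PLAUR values, and COLO-201 overlapped with SW480. Genes of motility and metastasis had a median of -0.30, and the adhesion protein MCAM was under 1 CPM in the 3 lines against 0 in LS513, 1.51 in LS1034 and 23.7 to 38.0 in the other 4 (median of the 6, 24.0).

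Intestinal regulators were the list with the highest median among those with over 20 tested members. Intestinal transcription factors had a median log2 fold change of 0.36, with 16 of 25 above 0, and 2 had groups that did not overlap. These were MYB and PPARG, a nuclear receptor of colonic differentiation, at 312 CPM in LoVo, 146 in COLO-201 and 204 in SNU-C1 against 27.3 to 145 (median 133). The gap between COLO-201 and LS513 in PPARG was small. Enterocyte and brush border genes had a median of -0.26 and 0 of 25 members apart; FABP2, a fatty acid carrier of enterocytes, stood at 82.8 CPM in SNU-C1, 2.18 in LoVo and at most 0.870 elsewhere.

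Secretory products spread over both groups. Goblet and secretory genes had a median of -1.06, with 6 of 23 above 0, and 1 member whose groups did not overlap. That member was PLA2G2A, a secreted antibacterial phospholipase of Paneth cells, at 16.8, 16.1 and 2.89 CPM against 0 to 1.83 (median 0.199). The gel-forming mucin MUC5AC had 0.342, 0 and 1.92 CPM against 0 to 75.2 (median 12.2), with its high values in LS1034, HT-29 and WiDr. By line, the level of the goblet list did not follow the negative median. It averaged 0.26 ± 1.04 (SD, n = 3) in the metastasis-derived against 0.08 ± 2.94 (SD, n = 6) in the primary-derived lines. Neuroendocrine genes summed to 25.9 ± 16.5 CPM (SD, n = 3) against 119 ± 69.1 (SD, n = 6), an exact two-sided permutation p of 0.0476 and 0.357 after adjustment over the 10 measures. Of the 21 genes of that list with counts, 10 were tested, and the defining marker CHGA was at or under 1.05 CPM in all 9 lines.

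Wnt targets had a median close to that of all genes. The Wnt and stem cell list had a median of -0.09, with 13 of 28 above 0 and 0 apart. Its level by line averaged 0.33 ± 0.58 (SD, n = 3) against -0.012 ± 1.21 (SD, n = 6). LGR5, the receptor that marks crypt stem cells, had 786 CPM in LoVo, 97.0 in COLO-201 and 23.6 in SNU-C1 against 0.0300 to 39.7 (median 6.23). EPHB2, a receptor of the crypt base, had 29.1, 467 and 136 CPM against 1.20 to 73.0 (median 21.9). Each was high in a different line, LGR5 in LoVo and EPHB2 in COLO-201, and both overlapped with LS1034.

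Growth and damage pathways had medians of either sign. EGF receptors and ligands had a median of 0.20 over 9 members, MAPK output genes -0.29 over 19, p53 targets -0.26 over 23 (5 above 0), cell cycle genes -0.20 over 36 and mismatch repair genes 0.21 over 8. The TGF-beta and BMP list had a median of 0.25 with 20 of 27 members above 0, and 0 apart. ID2, a target of BMP signalling, had 260, 192 and 217 CPM against 95.0 to 215 (median 167), and COLO-201 overlapped with LS1034 and HT-29. Over these 6 lists CDC25C was the 1 member whose groups did not overlap.

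Antigen presentation and interferon genes had medians below 0. The list of MHC class I presentation had a median of -1.50, with 2 of 18 members above 0, 1 at an unadjusted p under 0.05 and 0 apart. ERAP2, a peptidase that trims antigens, had 5.10, 4.85 and 15.8 CPM against 92.2 to 204 in LS1034, HT-29, LS513 and WiDr and 4.39 and 5.41 in HCT 116 and SW480. B2M, the light chain of MHC class I, which was picked after its values were seen, had 182 CPM in LoVo, 1322 in COLO-201 and 1779 in SNU-C1 against 618 to 8478. LS1034 and LS513 stood highest in this list, and without these 2 cecal lines its median was 0.07. HLA genes are polymorphic and alike, so their counts depend on how reads were placed. The interferon response list had a median of -0.67 with 7 of 41 above 0, and IFITM2 was its 1 member apart. The level of the interferon list was highest in LS1034 (1.51) and WiDr (1.48). LoVo (0.59) stood above LS513 (0.005), HCT 116 (-1.15) and SW480 (-1.31).

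Glycolysis genes had a median below 0 that came with low values in all 3 lines. The glycolysis and hypoxia list had a median log2 fold change of -0.71, with 5 of 33 members above 0, 5 at an unadjusted p under 0.05, 1 apart and 0 called. TPI1, triosephosphate isomerase, had 565 CPM in LoVo, 494 in COLO-201 and 659 in SNU-C1 against 724 to 2088 (median 1304). GAPDH, picked after its values were seen, had 1745, 1412 and 1354 CPM against 1538 to 4458 (median 2757). In both, LS513 was the lowest primary-derived line, and for GAPDH it overlapped with LoVo. Both genes have pseudogenes with which reads may be shared. SLC2A3, a neuronal glucose transporter, had under 0.4 CPM in the 3 lines and 0 to 1488 in the primary-derived lines (median 2.01). Its high values were in LS1034 (599 CPM) and SW480, and the other 4 lay between 0 and 3.54. The level of the list, as the median over members of log2 CPM minus the mean of the 9 lines, averaged -0.61 ± 0.15 (SD, n = 3) against 0.29 ± 0.59 (SD, n = 6). SNU-C1 overlapped with LS513 on that scale.

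Positional, keratin and stress genes completed the epithelial lists. HOX genes, which hold positional identity, had a median of -0.74, with 7 of 29 above 0 and 0 apart; HOXB5 had 2.55, 0.508 and 2.13 CPM against 2.10 to 13.1 (median 9.60), with HCT 116 the low primary-derived line. Keratins had a median of -0.27 over 17 members, while their level by line averaged 0.009 ± 0.73 (SD, n = 3) against -0.15 ± 1.24 (SD, n = 6). Immediate early and stress genes had a median of -0.37, and 2 of 29 members had groups that did not overlap. JUND, a subunit of the AP-1 factor, had 58.3, 62.1 and 75.0 CPM against 76.8 to 196 (median 106). DUSP1, the phosphatase that switches off MAP kinases, had 12.2, 3.02 and 11.9 CPM against 12.2 to 311 (median 22.5), and LoVo lay just under the lowest of these. Sterol synthesis had a median of -0.12 over 24 members, chemokines and cytokines 0.08 over 17 and cancer-testis antigens 0.40 over 6.

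**Figure D5:**
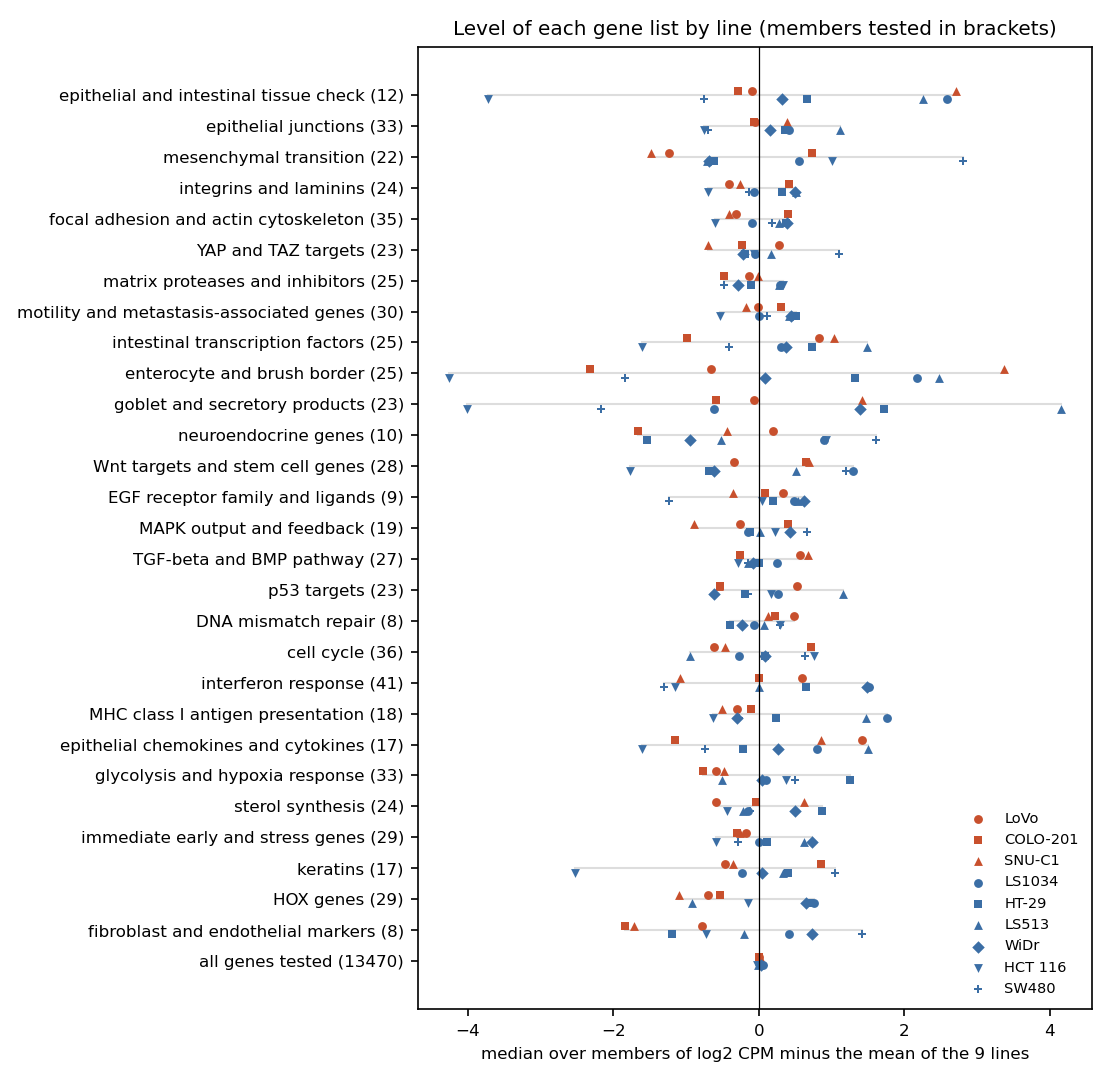
For each list with at least 8 tested members, the level in each line as the median over members of log2 CPM minus the mean of the 9 lines, with metastasis-derived lines in orange and primary-derived lines in blue. In none of the rows do all orange symbols stand apart from all blue ones, and the widest rows are goblet and brush border genes.

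Markers of other cell types varied by line within both groups. Of the leukocyte list, 6 of 16 genes were tested, and the pan-leukocyte gene PTPRC was at or under 1.13 CPM in all 9 lines. CD4 was at 0, 0.0299 and 0.0304 CPM against 0.180 to 5.90, and CD74 at 0 to 0.449 against up to 99.3 in LS1034. The summed leukocyte level was 2.29 to 731 CPM in the metastasis-derived and 3.03 to 2744 in the primary-derived lines. It was highest in HT-29 and WiDr, where it came mostly from LYZ, a lysozyme that Paneth cells also make. In LS1034 and SW480 CD74 made up most of it, at 99.3 of 111 CPM and 15.5 of 25.7 CPM. Fibroblast and endothelial markers summed to 2.18 to 27.0 CPM against 8.83 to 69.3, and hepatocyte and serum protein genes to 0.500 to 14.3 against 3.33 to 766. That last range came from SERPINA1, alpha-1 antitrypsin, at 394 CPM in LS1034, 588 in HT-29 and 760 in WiDr. Mesothelial markers summed to 6.31 to 75.2 CPM against 20.7 to 1602, the highest being SW480. None of the 10 measures passed adjustment, and their part in the gene values was not tested.

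In vesicles of the same 9 lines, few genes repeated the lack of overlap seen in cells, though at a share above that of all genes. The vesicle libraries were made with another kit and held 1748238 to 24358033 counts. In edgeR's test 0 of 16452 genes were called (0%), 282 stood at an unadjusted p under 0.05 (1.71%), 148 higher (0.9%) and 134 lower (0.814%), and the groups did not overlap in 123 (0.748%), 63 higher (0.383%) and 60 lower (0.365%). Of the genes tested in both, 14 had groups that did not overlap in the same direction, which is 6.42% of the 218 in cells and 11.6% of the 121 in vesicles. The 121 are out of 13364 genes tested in both and count either direction, which is a looser measure than a repeat in the same direction. Of the 14 genes, 6 were higher and included CALB1 and PLA2G2A, and 8 were lower and included PTMS, CDC25C and TAGLN.

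CALB1 also stood higher in the vesicles of all 3 lines, with a narrow gap between SNU-C1 and WiDr. It stood at 596 CPM in LoVo, 91.5 in COLO-201 and 22.2 in SNU-C1 and at 0 to 17.7 (median 1.39) in the primary-derived lines, a log2 fold change of 5.89 (SE 1.41). PTMS had 65.7, 46.3 and 23.8 CPM against 89.5 to 480 (median 194), and PLA2G2A had 23.4, 5.89 and 6.42 against 0.680 to 3.85 (median 1.94). Vesicle libraries also held reads of genes without counts in the cells. WiDr had 0 counts of CALB1 in cells, and SNU-C1 had 0 counts of VWF in cells but 42.0 CPM in vesicles. The CALB1 and PLA2G2A values of SNU-C1 vesicles lie below that level, so they may not reflect RNA of the cells. Of the 12 higher genes of the cells, 9 had a fold change in the same direction in vesicles, and 1 had groups that did not overlap. Of the 12 lower genes, 11 had the same direction and 2 had groups that did not overlap. The share of all genes with the same direction was not worked out, and both compartments come from the same lines. MYB, at 27.2, 73.8 and 26.5 CPM against 16.3 to 90.2 in vesicles, was among those whose groups overlapped there.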

How the data were processed

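Gene counts for the 20 libraries, as deposited by the authors, are whole numbers per protein-coding gene with no normalization. STAR, featureCounts and hg19 are named in the submitters' processing notes; their versions, the annotation and the strand setting are not given in the sources used here. The table had 17113 genes, and 0 columns were left without a sample. Per the labels' protocols, a stranded kit with removal of ribosomal RNA served for cells and a low-input kit for vesicles.

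The 9 cell libraries were filtered with filterByExpr (about 0.303 CPM in at least as many lines as the smaller group holds), scaled by TMM and fitted with edgeR 4.0.16 (robust glmQLFit and glmQLFTest, R 4.3.3), all 9 sharing 1 estimate of the spread. The 0.05 threshold applied to p-values adjusted by Benjamini-Hochberg across the whole table of tested genes. CPM values are on TMM-scaled library sizes, and log2 CPM used a prior count of 2. Vesicle libraries were fitted separately in the same way. Alternatives used limma 3.58.1 and DESeq2 1.42.0, other scalings and filters, HT-29 and WiDr summed, LS123 added, the cecal lines left out, and each line left out. One alternative (HT-29 and WiDr summed, HCT 116 left out) was chosen after seeing the data.

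Named genes were, in each direction, the genes past the threshold with the largest fold change among those with at least 10 CPM in the higher group and groups that do not overlap, filled up to 12 by the smallest p, then the 2 members of each list with the smallest p and the tissue check genes. The members and lists were chosen with earlier results of these data known. Gene order along chromosomes came from GENCODE, which placed 12124 of 12370 genes by symbol. The test was tried on simulated counts. P-values measure the spread between lines only. One gene that this rule names is not reported here.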

Additional observations from a re-analysis of the deposited data

Results flagged for a closer look

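In 2 of the 34 groups of values checked, both summed marker levels in the 6 primary-derived lines, 1 line lay far from the others by Dixon's criterion, and chance flags about 1 in 20. Peritoneal mesothelial markers summed to 1602 CPM in SW480, where KRT5 alone gave 1555 CPM, against 20.7 to 165 in the other 5 lines. Erythroid and platelet markers summed to 5.13 CPM in LS513.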

How the results depend on the processing

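No gene was called in cells by edgeR's or limma's test under 19 of the 21 alternatives. DESeq2's Wald test called 85 of 13470 genes, among them 16 of the 646 list members, and edgeR called 1, NIBAN1, without LoVo. The lists were chosen with earlier results of these data known, so the 2 shares are given as a description. Leaving out each line gave 0 to 1 calls in cells, 0 list members, and 0 to 1 in vesicles, where the 1 was KRT6B (log2 fold change 5.84) without LoVo. The 219 genes whose groups do not overlap became 195 to 258 under other scalings, filters and tools, with HT-29 and WiDr summed or with LS123 added. They became 839 without the cecal lines and 680 with HT-29 and WiDr summed and HCT 116 left out. Without each line they were 237 to 995 (849 without LoVo, 995 without COLO-201, 670 without SNU-C1, 442 without LS513 and 581 without HCT 116). Fewer lines then had to be separated. The count also varied with the primary-derived line left out, from 237 without HT-29 to 581 without HCT 116, and the reason was not tested. Counts at an unadjusted p under 0.05 ranged from 368 to 916. Among named genes, 28 passed the threshold under DESeq2 and under no other alternative. Signs turned for genes whose groups overlap widely, and the cause was not tested: under voom KRT5 (1.29), CDX2 (-0.21) and LGALS4 (1.75); with HT-29 and WiDr summed EPCAM (-0.020), and with HCT 116 left out as well EPCAM (-0.20), CDH1 (-0.069) and CDH17 (-0.19); without the cecal lines KRT19 (0.049). Without each line in turn, BTC ranged from -0.030 (without LoVo) to 1.66, EPCAM from -0.083 to 0.64, CDH1 from -0.10 to 0.39 and KRT19 from -1.21 to 0.30. The lowest value came without SNU-C1 for CLDN15 (-0.0030 to 2.07), CCL20 (-1.69 to 2.69), MAGEA12 (-8.13 to 4.68), VIL1 (-0.52 to 0.997), CDX2 (-0.95 to 1.43), CDH17 (-0.53 to 1.33), GPA33 (-2.70 to 2.09) and CEACAM5 (-1.44 to 3.12). Under alternatives 676 list medians stayed within the spread and 16 moved by more; those of integrins and of MHC class I turned to 0.17 and 0.07 without the cecal lines, and that of matrix proteases to 0.27 with HT-29 and WiDr summed and HCT 116 left out. Depth limits genes near 3 counts, as for CALB1 in the primary-derived lines. No paired analysis was possible because the 2 groups hold different lines and the replicate numbers only name them.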

Other observations

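Runs of at least 5 expressed neighbouring genes that all stood more than 2 times above the median of the other 8 lines occurred in every line, 7 in LoVo, 12 in COLO-201, 12 in SNU-C1 and 2 to 17 in the primary-derived lines. The longest of them held 16 genes of chromosome 6 in COLO-201, from PGC to C6orf226, with a median ratio of 5.90, and included CCND3, which encodes cyclin D3. In SNU-C1, 20 neighbouring genes of chromosome 5, from WDR36 to SEMA6A, stood below the other lines with a median ratio of 0.0651. That run included APC, the tumour suppressor of the Wnt pathway, at 4.53 CPM in SNU-C1 against 62.3 in LoVo, 32.7 in COLO-201 and 42.0 to 56.8 in the primary-derived lines. In LoVo 10 zinc finger genes of chromosome 19, from ZFP14 to ZNF585A, had a median ratio of 7.71e-04. ZNF45 and ZNF227 each lay in a run of 7 low genes there (0.00751 and 0.0584). PTMS and CD4 shared a run of 7 low genes of chromosome 12 in COLO-201 (0.431). On the same chromosome, PTMS and SLC2A3 lay in runs of 6 and 5 high genes in LS1034 (2.43 and 18.6). GAPDH lay in a run of 6 high genes in SW480 (2.20). These runs were found after the values were seen, and DNA copy number and methylation were not measured.

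NIBAN1, a stress-response gene, split the metastasis-derived lines, with 238 CPM in LoVo, 0.0299 in COLO-201 and 0.0609 in SNU-C1 against 16.4 to 40.2 in the primary-derived lines. It is the 1 gene that edgeR's quasi-likelihood test called in cells when LoVo was left out, at an adjusted p of 0.0130.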
